A study of Mus musculus with 2 samples.

Results

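Astrocyte identity and synapse-support genes were followed in total RNA from the left cerebral cortex of the mouse. The set holds 43 genes of 55536 annotated in the deposited tables, and each was matched by its symbol and GENCODE identifier. All are protein-coding genes of the nuclear genome, where 22015 such genes are annotated. There were 2 libraries, replicates 1 and 2 of 1 group, each from a female B6CASTF1/J mouse aged 25 days. That strain label names first-generation hybrids of the C57BL/6 and CAST strains, and neither animal carried a labelled treatment or engineered allele. The RNA input was 300 ng per library. The labels number the animals separately yet cite 1 donor identifier for both, so the spread between the libraries may be that of preparation alone.

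Astrocytes are the glia that clear glutamate and potassium from around synapses, supply neurons with metabolites and cover blood vessels with their endfeet. They also release proteins that help synapses form and mature, and they engulf synaptic material. When tissue is injured they can turn reactive, with more of the intermediate filament protein GFAP, and some of their genes are shared with the radial glia from which they arise.

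The members were read in 8 groups by role. Of the 43, 9 mark astrocyte identity, 7 act in transport or at the membrane, 6 help synapses form and 3 serve engulfment. A further 7 are metabolic, 6 carry lipids or are otherwise secreted, 1 (Gfap) stands for reactivity and 4 are shared with progenitors. The libraries held 31191506 and 27079663 expected counts over annotated genes. Each interval rests on 1 count per library and so covers counting error only. No molecular identifiers are described for the reads, so intervals may be too narrow where reads are duplicates. In bulk tissue, fewer cells of a type and less RNA per cell cannot be told apart.

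Some members differ between transcripts in a stretch of coding sequence, and those stretches are shown first because the transcript results turn on them. All are on mm10, 5′ to 3′ on the gene's strand, with capitals for coding bases that the named transcript has and the transcript it is compared with lacks, and lower case for neighbouring bases that both share. Other transcripts of Ndrg2, Slc4a4 and Fgfr3 also hold the capitals shown. Gfap (ENSMUSG00000020932.14, chromosome 11, minus strand) has 2 alternative coding ends, and the one of Gfap-202, absent from Gfap-201, lies at chr11:102891399-102891520.

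Gfap-202 end: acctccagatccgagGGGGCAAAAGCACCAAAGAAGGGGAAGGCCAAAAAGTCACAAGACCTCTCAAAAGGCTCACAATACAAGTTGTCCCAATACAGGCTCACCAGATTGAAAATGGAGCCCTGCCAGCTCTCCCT

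The cassette stretches of 4 further members follow. They lie at chr14:51911086-51911127 on the minus strand in Ndrg2, chr5:89232764-89232860 on the plus strand in Slc4a4, chr14:117892342-117892371 on the plus strand in Gpc6 and chr5:33728192-33728245 on the plus strand in Fgfr3.

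Ndrg2-201, absent from Ndrg2-202: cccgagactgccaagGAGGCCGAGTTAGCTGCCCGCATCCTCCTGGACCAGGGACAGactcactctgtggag

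Slc4a4-207, absent from Slc4a4-208: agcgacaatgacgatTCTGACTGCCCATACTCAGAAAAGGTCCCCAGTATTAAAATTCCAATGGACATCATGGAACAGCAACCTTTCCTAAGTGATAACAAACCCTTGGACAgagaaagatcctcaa

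Gpc6-204, absent from Gpc6-202: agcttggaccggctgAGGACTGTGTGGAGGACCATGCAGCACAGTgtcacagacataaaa

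Fgfr3-201, absent from Fgfr3-215: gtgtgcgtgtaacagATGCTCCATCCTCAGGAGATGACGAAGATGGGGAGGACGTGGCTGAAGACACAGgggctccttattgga

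Levels were read as alignment-based TPM unless the FASTQ-based table is named. TPM is a measure of transcript abundance that corrects for library size and gene length. It so allows genes to be set side by side. A gene counted as detected when neither library was under a TPM of 1. By that rule 42 of the 43 members were detected, and 58.7% of nuclear protein-coding genes were. Thbs1 was the member under it. The members' median level, log2(TPM + 1) averaged over the libraries, was 4.89 against 4.09 for all detected nuclear protein-coding genes, which is a median TPM of 28.6 against 16.02. That median lay at the 68.7th percentile of detected genes, and 10 members lay above the 90th percentile. The members together held a TPM of 5421 in replicate 1 and 5475 in replicate 2, or 1.21% and 1.19% of the TPM of detected protein-coding genes. The 6 most abundant (Apoe, Cst3, Glul, Sparcl1, Clu and Ttyh1) held 72.4% and 72.6% of it. The order of levels depended on the quantification. In the FASTQ-based table Cst3 (1512 and 1394) stood above Apoe (1348 and 1300), and Ndrg2 (656 and 645) stood above Ttyh1 (423 and 535). From Apoe to Thbs1 the levels spanned 1035-fold.

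**Figure D1:**
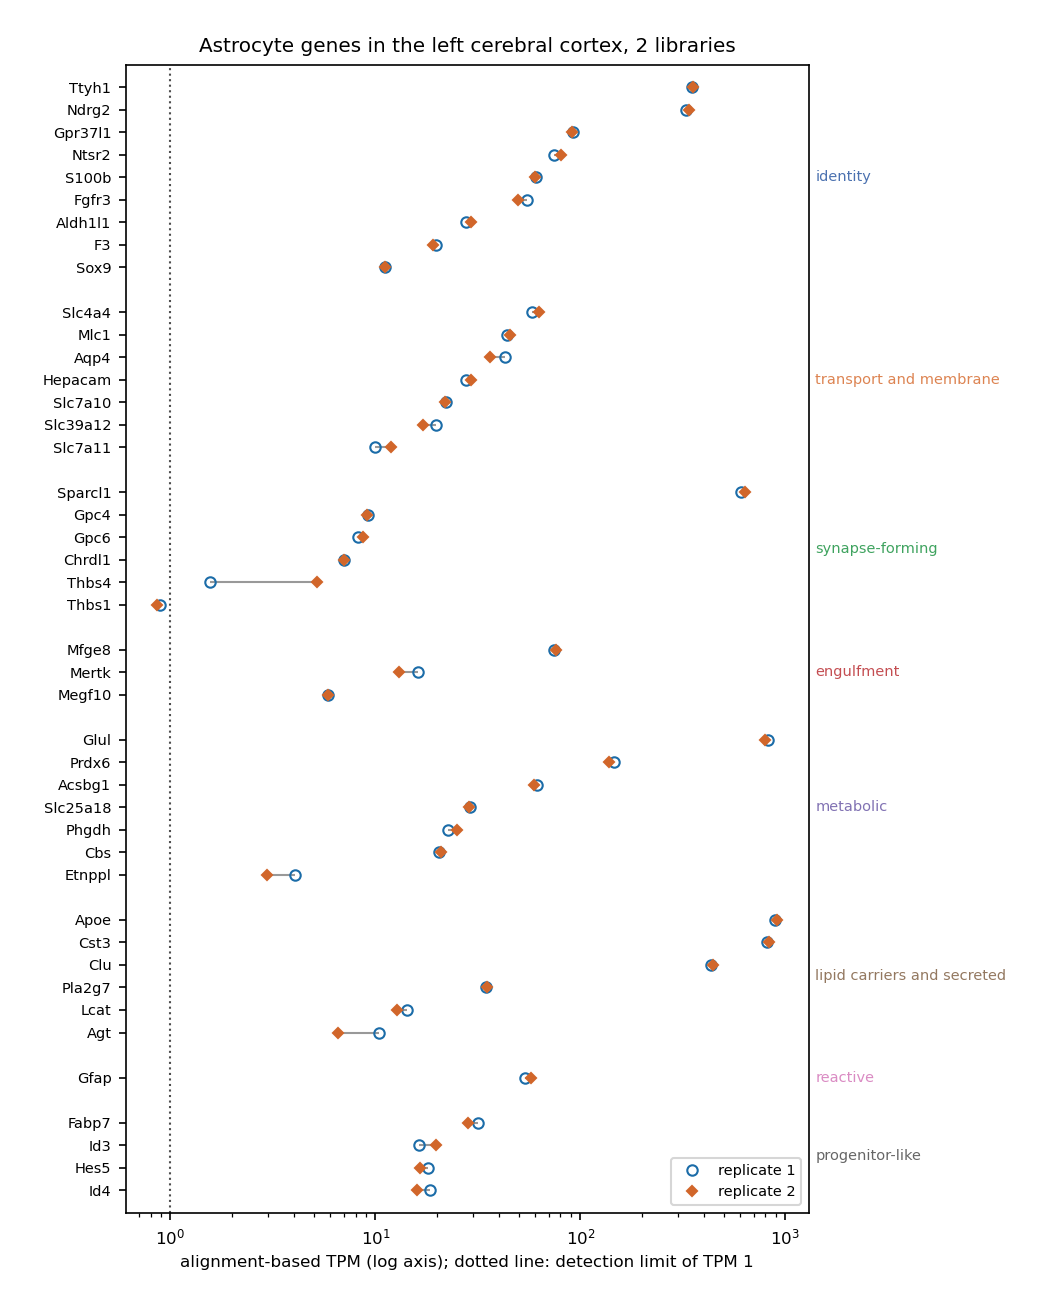
TPM of the 43 members in both libraries on a log axis, grouped by role and ordered by level within a role, with circles for replicate 1 and diamonds for replicate 2. Most pairs of symbols overlap, the pair of Thbs4 lies farthest apart (1.56 and 5.21), and Thbs1 alone lies left of the dotted line at a TPM of 1.

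All 9 identity genes were detected, and their median TPM was 60.6, at the 86.4th percentile of detected genes. Ttyh1, a membrane protein of glia, had a TPM of 352 in replicate 1 and 354 in replicate 2. Ndrg2, a cytoplasmic protein typical of astrocytes, stood at 326 and 340, below Ttyh1 in both libraries. The orphan-type receptor gene Gpr37l1, the neurotensin receptor gene Ntsr2 and the calcium-binding protein gene S100b followed. Gpr37l1 had 92.3 and 91.5, Ntsr2 had 74.8 and 80.3, and S100b had 61.1 and 60.2. The growth factor receptor gene Fgfr3 had 55.0 and 49.5. Aldh1l1, a folate enzyme used as a general astrocyte marker, stood lower at 27.7 and 29.3. F3, which encodes tissue factor of the clotting cascade, had 19.9 and 19.0. The least abundant was Sox9, a transcription factor of the astrocyte lineage, at 11.2 and 11.1. The library ranges of Ttyh1 and Ndrg2 did not overlap each other, and Sox9 lay below every other identity gene in both libraries. The order of Ttyh1 and Ndrg2 depended on the quantification. In the FASTQ-based table Ndrg2 was the higher in both libraries, at 656 and 645 against 423 and 535.

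All 7 transport and membrane genes were detected, with a median TPM of 28.6. Slc4a4, a sodium bicarbonate cotransporter, led with 58.1 in replicate 1 and 62.8 in replicate 2. Mlc1, a membrane protein of endfeet, had 43.9 and 45.6, and its partner Hepacam (GlialCAM) had 27.8 and 29.4. The water channel gene Aqp4 had 43.1 and 36.4, so it was below Mlc1 in both libraries by alignment-based TPM. By FASTQ-based TPM it was above Mlc1 in replicate 1 (73.7 against 67.4) and below it in replicate 2 (58.6 against 66.5). The amino acid transporter gene Slc7a10 stood at 22.1 and 21.9. The zinc importer gene Slc39a12 stood at 19.7 and 17.1. The lowest was Slc7a11, which exchanges cystine for glutamate, at 10.01 and 11.9.

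The 6 synapse-forming genes had the lowest median of the groups with more than 1 member, a TPM of 7.74 at the 29.0th percentile, and the widest range as a fold. Sparcl1 (hevin), a matrix protein that promotes excitatory synapses, had a TPM of 605 in replicate 1 and 639 in replicate 2. The glypican gene Gpc4, whose product recruits AMPA receptors, had 9.25 and 9.15. Its relative Gpc6 had 8.23 and 8.67, and Chrdl1, a secreted protein tied to synapse maturation, had 7.06 and 7.0. The thrombospondin gene Thbs4 had 1.56 and 5.21. Thbs1, the other thrombospondin of the set, had 0.89 and 0.86, from 106 and 86 counts. Sparcl1 thus stood apart from its group, whose other 5 genes all lay under a TPM of 10 in both libraries.

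The engulfment genes were all detected. Mfge8, a secreted bridge between dying cell surfaces and phagocytes, had a TPM of 74.1 in replicate 1 and 76.5 in replicate 2. The receptor kinase gene Mertk had 16.1 and 13.1. The engulfment receptor gene Megf10 was lowest at 5.90 and 5.84. The order of the 3 was the same in both libraries, with no overlap of their ranges.

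All 7 metabolic genes were detected, with a median TPM of 28.8. Glul, the glutamine synthetase that turns glutamate and ammonia into glutamine, had 823 in replicate 1 and 792 in replicate 2. Prdx6, a peroxiredoxin, had 146 and 138. The fatty acid activating enzyme gene Acsbg1 stood at 61.4 and 59.4, and the mitochondrial glutamate carrier gene Slc25a18 at 29.0 and 28.6. Phgdh, the first enzyme of serine synthesis, had 22.6 and 25.1. The next 2 by level were Cbs of the sulphur amino acid path, at 20.5 and 20.9, and Etnppl, which breaks down phosphoethanolamine, at 4.04 and 2.97. Glul was within the spread of Cst3, its neighbour in the order of levels, but not of Apoe or Sparcl1.

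The lipid carriers and secreted proteins had the highest group median, a TPM of 236. Their median level, log2(TPM + 1) averaged over the libraries, was 6.97, at the 94.9th percentile. Apoe, the main lipid carrier of the brain, had 895 in replicate 1 and 916 in replicate 2. Cst3, a secreted inhibitor of cysteine proteases, had 817 and 830. The chaperone and lipid carrier gene Clu had 432 and 444. The remaining 3 were far lower. Pla2g7, which inactivates platelet-activating factor, had 34.7 and 35.2, and Lcat, which esterifies cholesterol, had 14.2 and 12.8. Agt, the precursor of angiotensin, had 10.4 and 6.58.

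Gfap, the filament gene that rises in reactive astrocytes, had a TPM of 53.4 in replicate 1 and 57.7 in replicate 2, at the 84.9th percentile of detected genes. Of 16 other genes listed as markers of reactive astrocytes, 10 were detected. The highest were the filament gene Vim at 24.6 and 28.2 and the heat shock gene Hspb1 at 8.61 and 5.71. Serpina3n, a protease inhibitor gene, had 4.67 and 4.78. Lower still, Lcn2 had 0.37 and 0.35, C3 had 0.18 and 0.25, and Cxcl10 had no count in replicate 1 and 2 counts in replicate 2. None of the 16 was past 1.5-fold between the libraries at a mean CPM of at least 5. Genes of the list under that minimum, Hspb1 among them, could not be called. Hspb1 had 144 counts in replicate 1 and 80 in replicate 2. Its scaled ratio of replicate 2 over replicate 1 was 0.625 (interval 0.468 to 0.825), which is past 1.5-fold. The list's summed TPM was 59.7 and 63.6, and its median log2 ratio was 0.09, with a positive value meaning more in replicate 2.

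Each of the 4 progenitor-like genes passed the detection rule, and their median TPM was 17.6. Fabp7, a fatty acid binding protein of radial glia and young astrocytes, had 31.8 in replicate 1 and 28.4 in replicate 2. Id3, an inhibitor of DNA binding, had 16.3 and 19.8. Its relative Id4 had 18.4 and 16.0, and the Notch target gene Hes5 had 18.0 and 16.4. Their order could not be told below Fabp7, since the library ranges of Id3, Hes5 and Id4 overlapped. Of 10 other genes listed for radial glia and progenitors, 7 were detected. Highest were Dcx, a gene of young neurons, at 12.1 and 15.4 and Hopx at 9.21 and 9.87. Those not detected were Mki67 (0.35 and 0.47), Top2a (0.38 and 0.52) and Eomes (0.07 and 0.1).

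Across the whole order of levels, 18 of the 42 neighbouring pairs had library ranges that overlapped. A list of 20 astrocyte genes that are no members was also detected in full, as were the lists of neurons, microglia and oligodendrocytes. It was led by the glutamate transporter gene Slc1a2 at 886 in replicate 1 and 994 in replicate 2 and by Aldoc at 358 and 331. Partners of the members were present too. All 14 genes of a list of synapse partners were detected, with the receptor phosphatase genes Ptprs (271 and 322) and Ptprd (144 and 181) highest. All 9 genes of the serine and sulphur amino acid path were detected, led by Mat2a (76.7 and 72.4) and Psat1 (50.4 and 53.2).

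The libraries were compared on expected counts scaled by the TMM method of edgeR and given as CPM, counts relative to library size. A member was called past the fold at a ratio of at least 1.5 and a mean CPM of at least 5, which 42 of 43 members reached. With 2 libraries of 1 group no p-value can be given. One member was higher in replicate 2 by this rule, and 0.691% of 11721 genes were. One was higher in replicate 1, and 0.828% of genes were. A share of 1 in 42 is 2.38%, so each count rests on a single gene. Within 1.25-fold lay 39 of 43 members, against 92.4% of all tested genes.

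Thbs4 (ENSMUSG00000021702.7, chr13:92751590-92794818, minus strand) was the member past the fold in replicate 2. It had 90 counts in replicate 1 and 282 in replicate 2, a ratio of 3.52 (exact 95% interval 2.77 to 4.51, from a Clopper-Pearson interval) and a log2 ratio of 1.52. The FASTQ-based table gave 99 and 297 estimated counts for it. Its relative Thbs1 did not share the difference, with a ratio of 0.911 whose interval, 0.677 to 1.22, covered 1.

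Agt (ENSMUSG00000031980.9, chr8:124556534-124569706, minus strand) was the member past the fold in replicate 1. Its counts were 388 in replicate 1 and 206 in replicate 2, 1.68-fold higher in replicate 1 (interval 1.41 to 2.00) with a log2 ratio of -0.68. The FASTQ-based counts were 333 and 191. Short of 1.5-fold, Mertk, at 1405 and 922 counts, was 1.36-fold higher in replicate 1 (interval 1.25 to 1.48). Etnppl, at 217 and 142 counts, was also 1.36-fold higher there, with a wider interval of 1.10 to 1.69. Id4 was 1.22-fold (interval 1.13 to 1.32), Hes5 1.22-fold (interval 1.03 to 1.43) and Aqp4 1.20-fold (interval 1.14 to 1.27) higher in replicate 1, and Slc39a12 was 1.20-fold higher there too (interval 1.09 to 1.32).

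The bases before the start sites of the members past the fold are shown because these genes differed in opposite directions. They are 100 bases up to the annotated start from RefSeq on GRCm38.p6, 5′ to 3′ on the gene's minus strand, at chr8:124569707-124569806 for Agt and chr13:92794819-92794918 for Thbs4. Capitals mark TATAAA in Agt and CATAAA in Thbs4.

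Agt: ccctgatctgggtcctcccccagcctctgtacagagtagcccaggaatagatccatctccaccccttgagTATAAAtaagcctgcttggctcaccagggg

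Thbs4: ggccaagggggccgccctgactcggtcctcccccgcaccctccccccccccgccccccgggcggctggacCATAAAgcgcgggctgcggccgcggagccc

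Both hexamers begin 30 bases before the start. The letters were searched on both strands of the 300 bases around the start, 250 before and 50 after, and 34 of 43 members had an entry. TATAAA was found in 5 of them (14.7%) and in 13.6% of all 32851 promoters. CATAAA was found in 6 (17.6%) against 11.9% of all promoters. TGGGAA, the core of the motif of the Notch effector RBPJ, was found in 15 (44.1%) against 25.6%, and Hes5 is a known target of that path. TTCNNNGAA, the motif of STAT factors, was found in 6 (17.6%) against 8.30%, with Gfap and Agt among them. TTGGCA of nuclear factor I was found in 2 (5.88%) against 14.1%, and ACAAAG or ACAATG of SOX factors in 6 (17.6%) against 28.6%. Such matches describe the letters only. For 21 members the chosen start lay within 50 bases of that of the leading transcript.

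**Figure D2:**
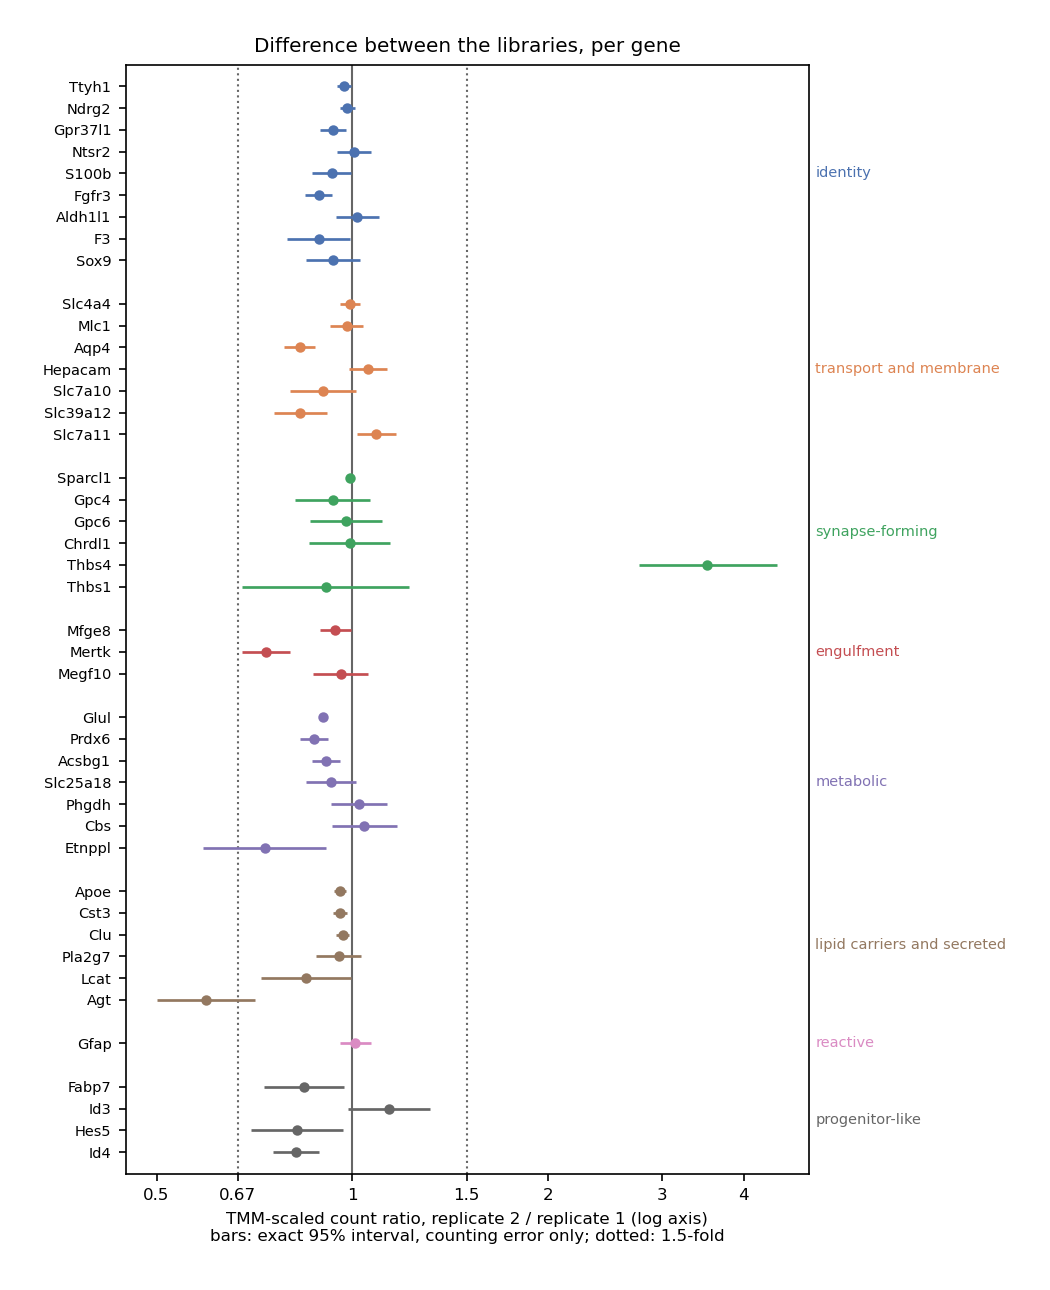
Ratio of TMM-scaled counts of replicate 2 over replicate 1 for each member on a log axis, with exact 95% counting intervals as bars and 1.5-fold as dotted lines. Thbs4 (3.52) lies beyond the right line and Agt beyond the left one, and the intervals of 20 members cover 1.

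Most members leaned slightly towards replicate 1. Their median log2 ratio was -0.08 over the 42 with a mean CPM of at least 5 and -0.09 over all 43. That of all tested genes was -0.03, and the central 90% of genes ran from -0.26 to 0.26. On TMM-scaled counts 34 members were higher in replicate 1 and 9 in replicate 2, and the split of all tested genes was not counted. On total counts the split was 28 to 15, and on TPM it was 23 to 20, so the split depends on the scaling. The members' median log2 ratio stayed below that of all tested genes on these scales too. It was -0.040 against 0.002 on total counts and -0.010 against 0.053 on TPM. With DESeq2 size factors it was -0.086 against -0.042, and on FASTQ-based counts -0.095 against -0.047. The counting intervals of 20 members covered a ratio of 1, those of 21 lay below it and those of 2 above it. The 2 above were Thbs4 and Slc7a11, and the ratio of Slc7a11 was 1.09 (interval 1.02 to 1.17). Intervals narrow as counts rise, so abundant genes can exclude 1 at a small difference. Apoe did so at 1.04-fold higher in replicate 1 (interval 1.02 to 1.07). The intervals of all tested genes were not counted in this way, so these counts have no background.

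By role, the medians of the log2 ratio ran from -0.24 in the progenitor-like group to 0.02 for Gfap alone. Among the progenitor-like genes, Fabp7, Hes5 and Id4 had log2 ratios of -0.23, -0.26 and -0.28, and Id3 had 0.17. The 9 identity genes were the tightest group with several members, from -0.17 (Fgfr3) to 0.03 (Aldh1l1). The synapse-forming genes other than Thbs4 lay between -0.10 and -0.01. All 6 lipid carriers and secreted genes and all 3 engulfment genes had log2 ratios below 0 on this scale. The exceptions to that direction on TPM were Apoe, Cst3, Clu, Pla2g7 and Mfge8, which stood slightly higher in replicate 2 there. The counts of Apoe, Cst3 and Clu were 1.04-fold, 1.04-fold and 1.03-fold higher in replicate 1 after scaling.

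Markers of some other cells differed more between the libraries than most members did. For myelinating oligodendrocytes, 7 of 7 genes had more in replicate 2, none was at 0, and the summed TPM was 1021 and 1583. Their median log2 ratio was 0.51, and Mobp (1.5-fold) and Mag (1.5-fold) were past the fold. For striatal neurons, 6 of 6 genes had more in replicate 1, none was at 0, and the summed TPM was 438 and 301. Their median log2 ratio was -0.64, and Ppp1r1b, Penk, Drd1 and Adora2a were past the fold. Of 6 ependyma and choroid plexus genes 3 were detected and none was at 0. By gene, 4 had more in replicate 1 and 2 had more in replicate 2. The summed TPM was 102 and 9.81, a difference that lay almost wholly in Ttr. Ttr alone had 96.0 in replicate 1 and 4.79 in replicate 2, a 21.3-fold difference in scaled counts. The inhibitory neuron gene Gad2 was 1.52-fold higher in replicate 1. No gene passed the fold among 20 other astrocyte genes, 8 of microglia, 6 each of endothelium, mural cells, meningeal fibroblasts, oligodendrocyte precursors and excitatory neurons. The part of these cell types in the differences of Thbs4 and Agt was not tested. The other astrocyte genes had a median log2 ratio of -0.08 and a summed TPM of 2633 and 2703.

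**Figure D3:**
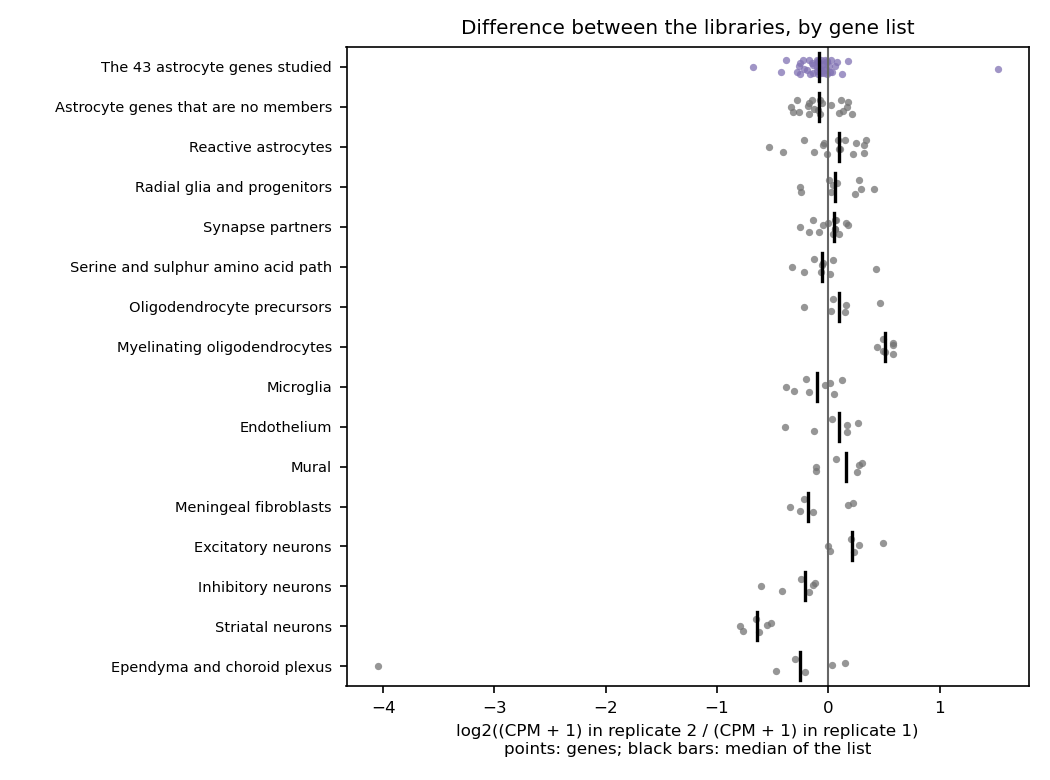
Log2 ratio of replicate 2 over replicate 1, on (CPM + 1), for each gene (points) of the members and of 15 marker lists, with the list's median as a black bar. The median is -0.09 for all 43 members and -0.08 for the other astrocyte genes, the myelin genes lie right of 0 and the striatal genes left of it.

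The share of a gene's TPM held by each annotated transcript was read from the alignment-based transcript table. The leading transcript held at least 50% in both libraries for 36 of the 42 detected members, and for 64.9% of detected protein-coding genes. Thbs1 adds 1 more among all 43. The leader was the same in both libraries and in the FASTQ-based table for 35 of the 42, against 67.6% of detected genes. Of the members, 8 have a single annotated transcript and the median is 4. The leader was a protein-coding transcript in 41 of 43, and this was not counted for all detected genes. In the median member 99.4% of TPM in replicate 1 and 98.9% in replicate 2 lay in protein-coding transcripts, against 89.2% and 87.6% in the median detected gene.

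Gfap was led by Gfap-201, which held 92.2% in replicate 1 and 91.0% in replicate 2. Gfap-202, with the alternative end shown, that of the form known as GFAP-delta, held 7.79% and 8.34%. The FASTQ-based table gave Gfap-202 13.5% and 14.8%, so its share depended more on the quantification than on the library.

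For Aqp4 the full-length coding transcripts fall into 2 coding lengths, which match the long (M1) and short (M23) forms of the water channel. Aqp4-201, with a coding length of 969 bases, held 59.6% and 63.2%. The 7 transcripts with 903 coding bases held 39.8% and 35.1% together. In the FASTQ-based table the longer form had 53.5% and 56.9% and the shorter form 45.3% and 41.5%. Both tables thus put the longer coding form first in both libraries, but they share 1 annotation. There Aqp4-201 has 5054 bases, and the main short-form transcripts have 1106 to 1288. The effect of this difference in length on the shares was not tested. The tables differed on which short-form transcript it was, since Aqp4-205 held 31.8% and 26.4% in the first table and 0 in the second.

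Slc4a4 was led by Slc4a4-207, which holds the 97-base stretch shown and has the coding length of the NBCe1-B form, with 59.97% and 58.2%. Slc4a4-208, which skips it and matches NBCe1-C, held 20.8% and 20.3%. The FASTQ-based shares were 66.1% and 61.8% against 25.9% and 24.5%. Slc4a4-206, a fragment of 371 bases, held 14.7% and 16.3% in the alignment-based table and 0 in the other.

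Ndrg2-202, the shorter form, led with 50.5% and 55.0%, and Ndrg2-201, which has the 42-base stretch shown, held 36.3% and 31.4%. Summed over transcripts, those with the stretch held 38.9% and 34.95% and those that span it without held 57.5% and 61.7%. The FASTQ-based sums were 34.0% and 32.4% with the stretch. The form without it was the larger in each table and library. Mertk-201, the full-length receptor, held 100% and 89.8%.

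Apoe showed the sharpest conflict over a transcript. Apoe-209 held 88.9% and 89.5% in the alignment-based table and 0.0492% and 0 in the FASTQ-based one, which gave 83.2% and 94.5% to Apoe-205. Both have the same coding length, 933 bases, and differ at their 5′ ends. Transcripts of that coding length held 99.4% and 98.8% in the first table and 99.5% and 99.3% in the second. The tables thus put the same coding length first and differed in the start of the transcript.

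There were 6 detected members with no transcript at 50% in both libraries: Fgfr3, Gpc6, Chrdl1, Etnppl, Cbs and Ttyh1. Fgfr3-201 held 48.4% and 50.01%, and the FASTQ-based table led with Fgfr3-210 at 22.4% and 27.7%. Transcripts with the 54-base stretch of Fgfr3 held 78.8% and 81.7% in the first table and 59.8% and 56.2% in the second. Gpc6 was divided between Gpc6-202 (47.2% and 43.0%) and Gpc6-204 (37.3% and 41.5%), which adds the 30 bases shown. Chrdl1-202 held 37.3% and 38.4%, while the FASTQ-based table led with the 640-base Chrdl1-205 in replicate 2, at 34.4%. Etnppl-203 held 58.4% and 49.5%. In the FASTQ-based table Etnppl-202 held 50.9% in replicate 1 and 0 in replicate 2, so that table disagreed between the libraries.

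Cbs was the member whose leader changed between libraries in the alignment-based table. Cbs-212, a fragment of 363 bases, led in replicate 1 with 24.02% against 30.2% in replicate 2, and Cbs-202 led in replicate 2 with 31.6% against 17.1%. The FASTQ-based table gave Cbs-212 0 in both libraries. It led with Cbs-204 in replicate 1 (32.4%) and Cbs-205 in replicate 2 (28.4%). Cbs as a gene differed little, at 630 and 586 counts. Ttyh1 was led by Ttyh1-211, a retained-intron transcript of 417 bases, with 24.4% and 24.1%. The FASTQ-based table gave Ttyh1-211 0 in replicate 1, where Ttyh1-201 led with 29.7%, and 22.6% in replicate 2. In Prdx6 the leader was Prdx6-208, annotated as a target of nonsense-mediated decay, with 61.1% and 60.03%, and protein-coding transcripts held 12.7% and 11.2% of that gene. TPM divides by length, so a short transcript needs few reads to take a large share.

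**Figure D4:**
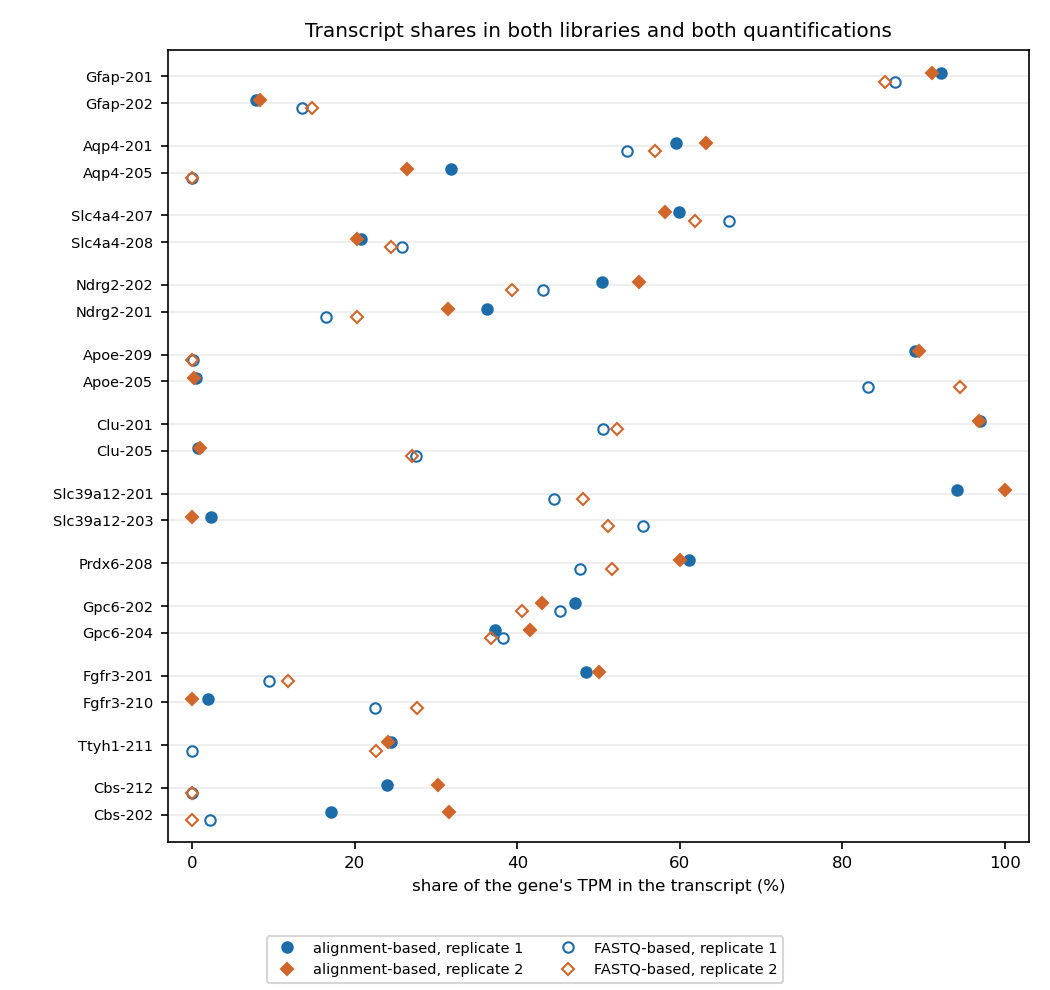
Share of the gene's TPM (%) in 22 transcripts of 12 members, with filled symbols for the alignment-based and open symbols for the FASTQ-based table, circles for replicate 1 and diamonds for replicate 2. The libraries lie close together in most rows, while the tables lie far apart for Apoe-209, Apoe-205, Clu-201 and Slc39a12-201.

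The gene levels of the quantifications were compared after rescaling each to the detected protein-coding genes. The median member stood at 0.930 of its alignment-based TPM in the FASTQ-based table, and the median detected gene at 0.958. Clu and Slc39a12 were at least 1.5-fold higher in the FASTQ-based table in both libraries, where 2.12% of detected genes were, and Hes5 was at least 1.5-fold lower, where 1.63% were. Of the 42 detected members these are 4.76% and 2.38%.

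Clu was higher by 1.66-fold in replicate 1 and 1.56-fold in replicate 2. Its counts were alike in the tables, 15105 and 13003 against 15636 and 13778. The FASTQ-based table gave Clu-201 50.5% and 52.3% in place of 97.0% and 96.8%, and gave 27.6% and 27.1% to Clu-205, of 558 bases. Slc39a12 was higher by 1.85-fold and 1.71-fold. The FASTQ-based table led with its 536-base transcript Slc39a12-203, at 55.4% and 51.2%, where the alignment-based table gave 2.24% and 0. Hes5 stood at 0.627 and 0.616 of its alignment-based TPM, with 264 and 201 estimated counts against 355 and 260 expected counts. Its 350-base transcript Hes5-202 held 24.7% and 29.1% in the alignment-based table and 0 and 5.51% in the other.

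Slc7a10, Aldh1l1 and Ttyh1 stood out within the FASTQ-based table, and were picked after their values were seen. Slc7a10 had a ratio to its alignment-based TPM of 0.765 in replicate 1 and 1.14 in replicate 2. Aldh1l1 had 0.740 and 0.936, and Ttyh1 had 0.742 and 0.952. Estimated counts of Slc7a10 were 622 and 520, close to the expected 654 and 526, while Slc7a10-201 went from 68.3% to 46.5% of the gene.

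**Figure D5:**
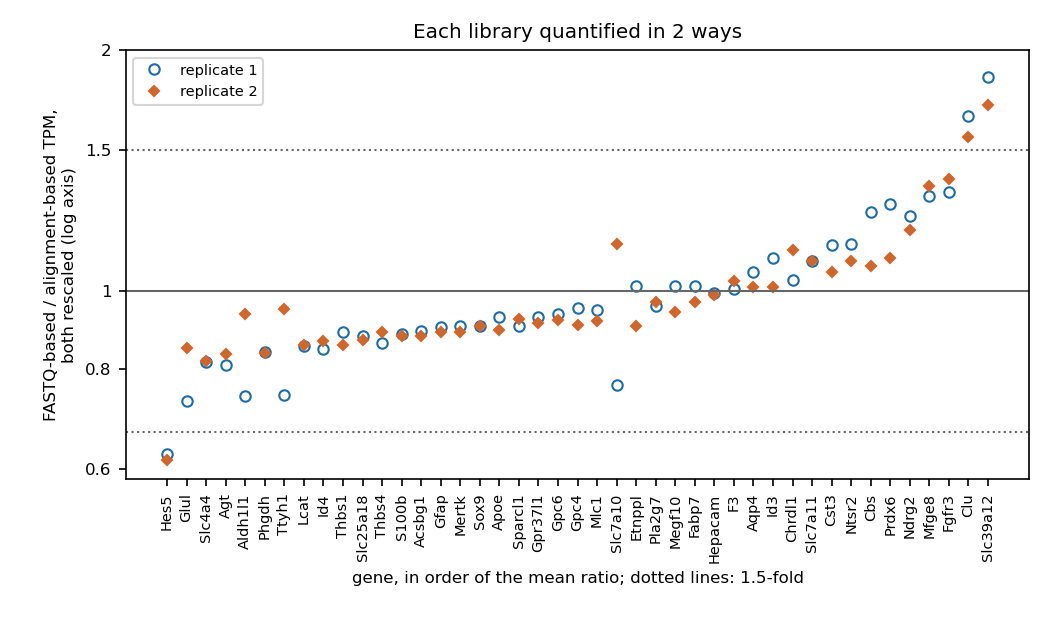
FASTQ-based over alignment-based TPM for each member, both rescaled to detected protein-coding genes, on a log axis, with circles for replicate 1, diamonds for replicate 2 and dotted lines at 1.5-fold. Slc39a12 (1.85 and 1.71) and Clu (1.66 and 1.56) lie above the upper line and Hes5 (0.627 and 0.616) below the lower one.

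Expected counts were whole numbers for 40 of 43 members. The exceptions were Glul, Phgdh and Aldh1l1, for which the authors' counting divided some reads between places. Other annotated genes overlap 4 members on the same strand (Mertk, Aldh1l1, Glul and Slc7a11), and 18 members have an overlapping gene on the opposite strand. Reads in such overlaps may be counted to either gene. The members lie on 18 chromosomes, with Gpc4 and Chrdl1 on the X.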

How the data were processed

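Total RNA was sequenced from 2 libraries of 1 group. Per the file headers and the accompanying description, the authors deposited alignment-based expected counts and TPM per gene, alignment-based percent of gene TPM per transcript, and FASTQ-based estimated counts and TPM per transcript, on mm10 with GENCODE M21. Names of the aligner and quantifiers were not given in the sources used here. FASTQ-based values were summed per gene. The 43 members, their roles and all marker lists were chosen with earlier results of these data known. Expected counts over annotated genes were rounded for edgeR 4.0.16 (limma 3.58.1, R 4.3.3), whose TMM factors were 0.987 and 1.01. DESeq2 1.42.0 size factors were an alternative scaling. Log2 ratios use CPM with a pseudocount of 1 and understate differences of low genes. Count ratios have exact 95% binomial intervals. Other steps used Python 3.11.15 with scipy 1.17.1, numpy 2.4.6, pandas 2.3.3 and, for figures, matplotlib 3.10.9.

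All members are accounted for. Values in each library are given for the 2 most and the least abundant member of each role, members past 1.5-fold between libraries or quantifications, members under a TPM of 1, and those whose transcripts are described. Other genes named are the 2 most abundant of a list, those past the fold, the listed progenitor genes not detected and 4 reactive markers chosen after their values were seen. One marker of the myelin list and 1 coding sequence are not reported here. Alternatives covered the scaling, the TPM and CPM minimums, the pseudocount, the transcript threshold, the FASTQ-based tables and leaving out each library.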

Additional observations from a re-analysis of the deposited data

How the results depend on the processing

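The count of detected members was 42 and ran from 40 to 43 under other TPM minimums, the FASTQ-based TPM and either library alone. The median level of 4.89 was 5.54 with FASTQ-based TPM, 5.47 with CPM without length correction and 4.84 with a pseudocount of 0.1, and 4.85 to 4.89 with 1 library left out. Thbs4 and Agt remained the members past 1.5-fold under total counts, DESeq2 size factors, FASTQ-based counts and no CPM minimum. The median log2 ratio of -0.076 ran from -0.095 to -0.040 under the count-based alternatives and was -0.010 on alignment-based TPM. Members led by 1 transcript numbered 37, and 34 to 38 otherwise. The 3 members that differed between quantifications fell to 0 at a 2-fold threshold and stayed at 3 with either library alone. No paired analysis was possible because the libraries form 1 group. Depth limits Thbs1, Thbs4 and Etnppl most, with 86 to 282 counts per library.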
